A study of Mus musculus with 2 samples.

Results

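The proteasome genes of sorted mouse type 5 bipolar cells are described here. They were taken by symbol, as the rows of the deposited table whose name is Psm, a letter from a to g and a digit, with pseudogenes and antisense transcripts left out. The rule found 50 of 32813 symbols, of which 48 were above 0 in at least 1 library, and 2 (Psma8 and Psme2b) were listed at 0 in both. The rule uses symbols, not measured values. Symbols matching the rule were all kept, so Psmc3ip, a recombination protein that only shares the prefix, is among the 50.

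The series holds 1 group with 2 libraries, called replicate 1 and replicate 2 and labelled biological replicates. Fluorescent cells were sorted from dissociated retinas of Htr3a-GFP mice, in which, as the name of the line says, green fluorescent protein reports Htr3a, the gene of a serotonin-gated channel subunit found in type 5 cone bipolar cells. There is no treatment, mutation or other cell population. The labels used here give neither strain, age nor sex, and do not say how many animals made up a library. Values are transcripts-per-million units (TPM), which are scaled for transcript length, so levels of different genes can be set side by side. Pairs of values below are for replicate 1 and then replicate 2.

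The proteasome is the protease that degrades proteins marked with ubiquitin. Its 20S core is a stack of rings, with alpha subunits in the outer rings that form the gate and beta subunits in the inner rings, and Psmb5, Psmb6 and Psmb7 carry the chymotrypsin-like, caspase-like and trypsin-like active sites. The 19S particle caps the core: its base holds the ATPases that unfold substrates, and its lid removes ubiquitin. Interferon gamma induces Psmb8, Psmb9 and Psmb10, which take the places of Psmb5, Psmb6 and Psmb7 in the immunoproteasome, a form abundant in immune cells that makes peptides for presentation on class I molecules.

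The promoters of the catalytic subunits are shown because the comparison of the 2 forms of the core rests on these genes, together with that of Psme1, an interferon-inducible activator subunit that was abundant. Each runs from 250 bases before to 50 bases after the RefSeq start site on the strand of the gene (GRCm38.p6). Psmb5 is at chr14:54617946-54618245 on the minus strand, Psmb6 at chr11:70525107-70525406 on the plus strand, Psmb8 at chr17:34197945-34198244 on the plus strand, Psmb9 at chr17:34187281-34187580 on the minus strand, Psmb10 at chr8:105938343-105938642 on the minus strand and Psme1 at chr14:55578244-55578543 on the plus strand. The promoter of Psmb7 was not used here. Capitals mark TGACNNNGC, the core of the antioxidant response element bound by Nfe2l1 and Nfe2l2, in Psmb5 and Psmb6, and GAAANNGAAA, the core of the interferon-stimulated response element, read on the opposite strand in Psme1. In Psmb9 they mark the 28 bases that lie inside the annotated neighbour Tap1, and neither motif is in the windows shown for Psmb8, Psmb9 or Psmb10.
Psmb5: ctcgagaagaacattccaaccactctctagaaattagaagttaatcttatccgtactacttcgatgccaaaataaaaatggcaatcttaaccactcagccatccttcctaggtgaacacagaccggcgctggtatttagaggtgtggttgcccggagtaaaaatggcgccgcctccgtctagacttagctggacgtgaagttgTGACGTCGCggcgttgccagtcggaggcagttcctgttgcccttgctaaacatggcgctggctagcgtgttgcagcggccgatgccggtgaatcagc
Psmb6: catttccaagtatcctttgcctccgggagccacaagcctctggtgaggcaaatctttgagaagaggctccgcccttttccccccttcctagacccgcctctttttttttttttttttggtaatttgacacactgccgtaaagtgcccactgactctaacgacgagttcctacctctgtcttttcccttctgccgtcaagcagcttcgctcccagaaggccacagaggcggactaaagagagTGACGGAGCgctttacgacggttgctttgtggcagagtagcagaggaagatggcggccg
Psmb8: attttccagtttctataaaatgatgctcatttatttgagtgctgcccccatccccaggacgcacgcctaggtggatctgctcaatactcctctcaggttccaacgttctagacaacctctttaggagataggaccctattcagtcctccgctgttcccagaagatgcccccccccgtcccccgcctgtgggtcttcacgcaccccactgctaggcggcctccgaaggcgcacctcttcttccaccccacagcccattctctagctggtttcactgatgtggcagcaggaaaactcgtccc
Psmb9: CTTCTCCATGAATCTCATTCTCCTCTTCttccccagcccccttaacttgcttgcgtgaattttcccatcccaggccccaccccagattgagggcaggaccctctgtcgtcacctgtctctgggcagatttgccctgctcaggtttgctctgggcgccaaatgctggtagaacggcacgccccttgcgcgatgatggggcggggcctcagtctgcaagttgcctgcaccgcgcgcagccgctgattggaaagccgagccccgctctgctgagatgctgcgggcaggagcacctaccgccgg
Psmb10: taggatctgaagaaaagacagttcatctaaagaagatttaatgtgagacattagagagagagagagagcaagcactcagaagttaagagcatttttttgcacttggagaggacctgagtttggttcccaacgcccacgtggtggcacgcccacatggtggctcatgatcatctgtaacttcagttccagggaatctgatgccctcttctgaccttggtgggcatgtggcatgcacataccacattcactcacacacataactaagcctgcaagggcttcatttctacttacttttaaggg
Psme1: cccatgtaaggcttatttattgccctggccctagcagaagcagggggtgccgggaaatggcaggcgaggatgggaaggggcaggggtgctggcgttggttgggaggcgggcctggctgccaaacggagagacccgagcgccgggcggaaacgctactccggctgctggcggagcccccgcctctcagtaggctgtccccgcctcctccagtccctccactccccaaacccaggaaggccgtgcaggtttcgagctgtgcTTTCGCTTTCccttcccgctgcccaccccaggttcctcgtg

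The TGACNNNGC core began 47 bases before the start site of Psmb5 and 9 bases before that of Psmb6. Promoters were matched for 42 of the 50 genes. On either strand, TGACNNNGC was present in 6 of these 42 genes (14.3%), against 12.4% of all 32851 RefSeq promoters of this length, and the 6 were Psmb5, Psmb6, Psmc6, Psmd9, Psmd12 and Psme4. GAAANNGAAA was present in 5 (11.9%), against 3.44% of all promoters. The 5 were Psmb3, Psmd4, Psmd9, Psme1 and Psmg4, and none of the 3 immunoproteasome genes was among them. The windows of Psmb8 and Psmb9 lie inside their GENCODE genes, which begin at 34197721 and, on the minus strand, at 34187764 of chromosome 17. Bases before those positions were not searched in these genes. The CCAAT box stood in 35.7% of the 42 genes, against 37.4% of all promoters, and TATAAA in 9.52%, against 13.6%. The ratio of observed to chance-given CG dinucleotides had a median of 0.73 over the 45 promoters of proteasome genes, against 0.38 over all promoters, with 0.52 in Psmb8, 0.60 in Psmb9, 0.19 in Psmb10, 0.999 in Psmb5 and 0.73 in Psmb6. These are matches of letters in a window and no binding was measured.

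Markers of the labelled cell type were present. All 5 markers each of type 5 cells, ON bipolar cells and bipolar cells in general were called above 10 TPM in limma, where 32.4% of all genes were. Htr3a was at 90.9 and 88.8 TPM. Some markers of other retinal cells were present too. Of 5 genes each, 4 rod, 2 Muller glia, 1 cone (Gnat2) and 1 amacrine (Pax6) marker were called above 10 TPM. Rod markers summed to 330 and 654 TPM over 5 genes, and Muller glia markers to 176 and 245 TPM over 5. Cone markers summed to 104 and 29.5 TPM and amacrine markers to 60.2 and 83.8 TPM, again over 5 genes each. Gnat2 made up most of the cone sums, at 86 and 23.3 TPM. Genes of the mitochondrial genome took 17.3% and 24.6% of the TPM. Over all genes above 0 the median log2 difference, replicate 2 minus replicate 1, was -0.20. Zeros are given as listed, because even the ribosomal protein gene Rps27 had 0 TPM in replicate 1, with 838 TPM in replicate 2. In a bulk library a smaller share of cells with a transcript and less of it per cell cannot be told apart.

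Proteasome genes were expressed widely and at levels above most genes. Their summed level was 3974 TPM in replicate 1 and 3884 TPM in replicate 2, and their median was 66.4 and 70.3 TPM, against 9.86 and 8.09 TPM for the 19968 genes above 0. On the scale log2(TPM + 1) the median of the 50 genes was 6.17, against 3.22 for all genes above 0. In the limma fit over all 19968 genes (one-sided, with a Benjamini-Hochberg threshold of 0.05), 45 of the 48 proteasome genes tested were above 1 TPM, where 55.5% of all genes were. Above 10 TPM there were 39 of the 48, where 32.4% of all genes were. The genes not called above 10 TPM were Psmb8, Psmb9, Psmb10, Psmb11, Psmc3ip, Psmd9, Psmd13, Psmg3 and Psmg4. Of the 31 constitutive core subunits of the 26S proteasome that the symbol rule takes, only Psmd13 was among them. The lid subunit Sem1 and the ubiquitin receptor Adrm1 have other symbols and are outside the 31. Psmd13 was called with a pseudocount of 0.1, with means of at least 1 TPM and after rescaling without the mitochondrial genome. Without the variance trend Psmd3 was not called. Only Psma3, Psma7, Psmb4 and Psmc2 were called above 100 TPM, where 4.08% of all genes were. That last count was unstable, with 0 called without the variance trend and 9 after rescaling without the mitochondrial genome. The shares of all genes under these alternatives are not given here, so the change is not read as particular to proteasome genes. By value alone replicate 1 had 13 proteasome genes of at least 100 TPM and replicate 2 had 14. In both libraries at once, 40 of the 48 genes reached 10 TPM, where 41.3% of all genes did, and 10 reached 100 TPM, where 6.57% did.

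**Figure D1:**
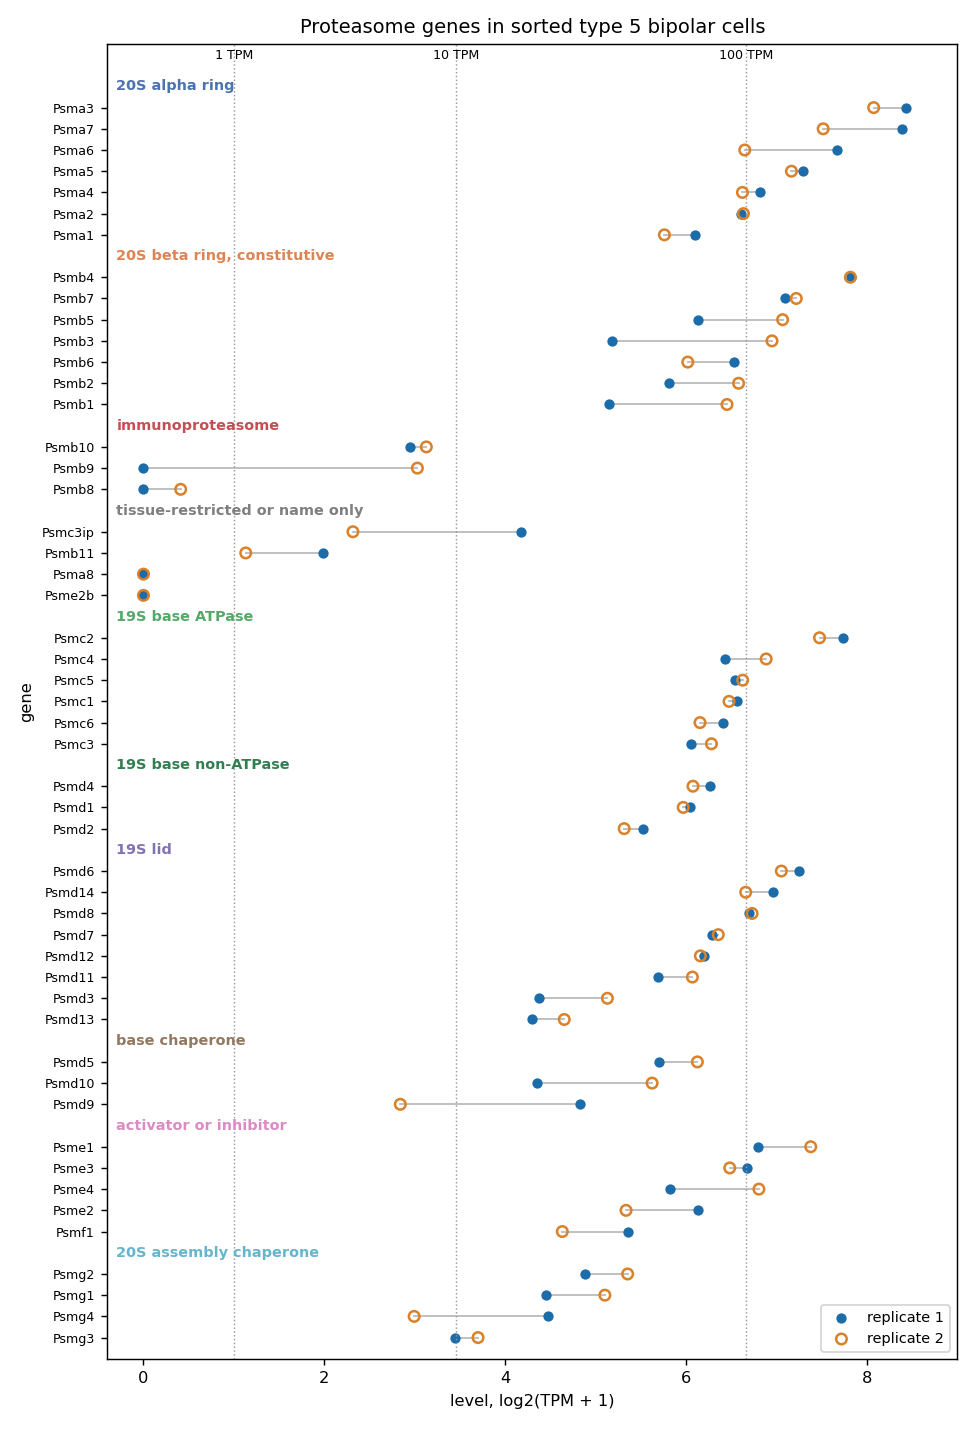
Level of the 50 proteasome genes as log2(TPM + 1) on the horizontal axis, by role down the page, with a filled point for replicate 1 and an open one for replicate 2, joined by a line. Dotted lines stand at 1, 10 and 100 TPM; the immunoproteasome genes lie under 10 TPM in both libraries, and every constitutive core subunit lies above it.

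The 7 constitutive alpha subunits had a median of 156 and 99.3 TPM, the highest of the roles in replicate 1 and second to the constitutive beta subunits in replicate 2. Psma3 led all proteasome genes at 345 and 268 TPM (307 ± 54.2 TPM, SD, n = 2), and its mean placed it at rank 365 of all symbols. Psma7 followed at 333 and 182 TPM. Psma1 was the lowest of the ring at 67.6 and 53.2 TPM, so that Psma3 exceeded Psma1 5.11-fold in replicate 1 and 5.05-fold in replicate 2, although the core takes each alpha subunit in equal number. Psma2 was close in both libraries at 96.4 and 98.3 TPM, as were Psma4 at 112 and 97.6 TPM and Psma5 at 156 and 142 TPM. Psma6 was 2.04-fold higher in replicate 1, at 202 and 99.3 TPM. Of the 7, only Psma2 was higher in replicate 2, and the sum over the ring was 1312 and 941 TPM. Psma8, an alpha subunit of the testis that replaces Psma7 in germ cells, was listed at 0 in both libraries.

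The 7 constitutive beta subunits had a median of 69.3 and 123 TPM, and here most were higher in replicate 2. Psmb4, a structural subunit, was the highest at 225 and 224 TPM (225 ± 0.66 TPM, SD, n = 2). The structural subunits Psmb1, Psmb2 and Psmb3 were at 34.5 and 86.6 TPM, at 54.97 and 94.7 TPM and at 35.2 and 123 TPM. The catalytic subunits were at 69.3 and 133 TPM for Psmb5, 91.6 and 63.8 TPM for Psmb6 and 136 and 148 TPM for Psmb7. Thus 5 of the 7 were higher in replicate 2, by 3.48-fold for Psmb3 and 2.51-fold for Psmb1, while Psmb6 was lower there and Psmb4 was nearly equal. The sum was 647 and 873 TPM, the opposite direction to the alpha ring, and the 20S core as a whole summed to 1959 and 1814 TPM.

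**Figure D2:**
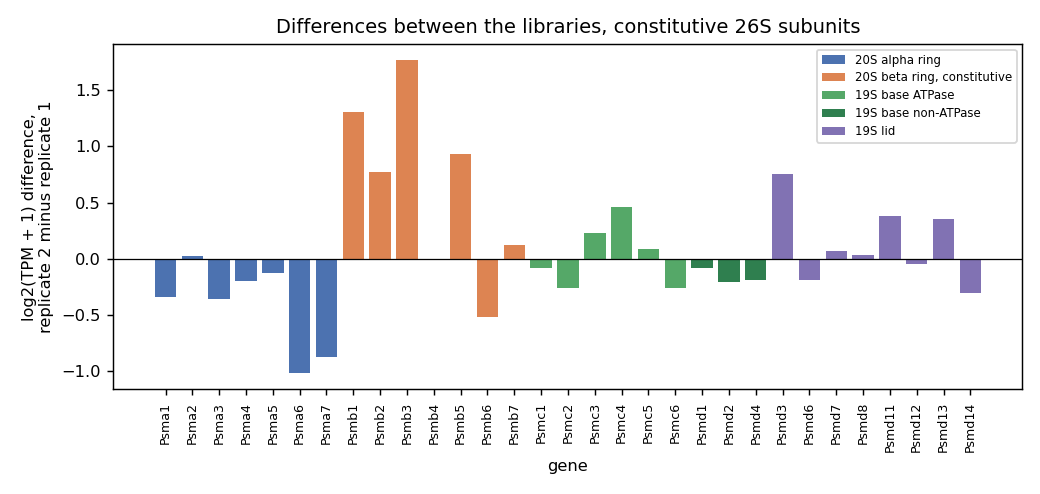
Difference in log2(TPM + 1) between the libraries, replicate 2 minus replicate 1, on the vertical axis for each of the 31 constitutive core subunits, with a bar per gene coloured by role. Of the alpha ring 6 of 7 bars are below 0, of the constitutive beta ring 5 of 7 are above 0, and all 17 bars of the 19S subunits lie within 1 log2 unit of 0.

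The immunoproteasome subunits were low in both libraries and each was under its constitutive counterpart. Psmb8, which replaces Psmb5, had a listed value of 0 in replicate 1, and 0.33 TPM in replicate 2. Psmb9, which replaces Psmb6, likewise had 0 in replicate 1, and 7.16 TPM in replicate 2. Psmb10, which replaces Psmb7, was at 6.72 and 7.74 TPM (7.23 ± 0.72 TPM, SD, n = 2). Psmb10 was the only one of the 3 with a value above 0 in both libraries and the only one called above 1 TPM. Psmb8 and Psmb9 were called under 10 TPM with Psmb11, where 31.0% of all genes were, and Psmb10 was not called on either side of that line. Of these calls that of Psmb8 alone held with a pseudocount of 0.1 or after rescaling without the mitochondrial genome, and none held in a fit restricted to means of 1 TPM or more, which leaves Psmb8 out. By value alone, 5 of the 48 genes were under 10 TPM in replicate 1 and 7 in replicate 2.

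Within each library, 3 pairs were compared by limma on the difference in log2(TPM + 1), immunoproteasome minus constitutive subunit, with Benjamini-Hochberg adjustment over 19967 genes. Psmb8 minus Psmb5 was -6.14 in replicate 1 and -6.66 in replicate 2, with a mean of -6.40 ± 0.78 (SE, limma adjusted p = 4.57e-15). Psmb9 minus Psmb6 was -6.53 and -2.99, with a mean of -4.76 ± 0.97 (SE, limma adjusted p = 0.00615). Psmb10 minus Psmb7 was -4.15 and -4.09, with a mean of -4.12 ± 0.88 (SE, limma adjusted p = 1.02e-04). All 3 differences were below 0 in both libraries and past the threshold of 0.05. In TPM, Psmb10 lay under Psmb7 20.2-fold in replicate 1 and 19.1-fold in replicate 2. In replicate 2, the library in which they were above 0, Psmb8 lay under Psmb5 403-fold and Psmb9 under Psmb6 8.91-fold. Together the immunoproteasome subunits held 2.21% of the TPM of the catalytic subunits in replicate 1 (6.72 TPM, against 297 TPM of the constitutive ones) and 4.23% in replicate 2 (15.2 TPM, against 345 TPM).

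Being under a constitutive subunit is not particular to the immunoproteasome genes, since 71.2% of all genes were called lower than Psmb5, 78.4% lower than Psmb6 and 91.1% lower than Psmb7. The SE of these fits drew on the trend over all genes, and how far a pair's own disagreement entered was not recorded. For Psmb9 minus Psmb6 the SE from the 2 libraries alone would be 1.77, larger than the 0.97 of the fit, and an exact test over 2 libraries cannot go below p = 0.5. The pair of Psmb9 is also the one in which the libraries differed most, with Psmb9 listed at 0 in replicate 1.

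**Figure D3:**
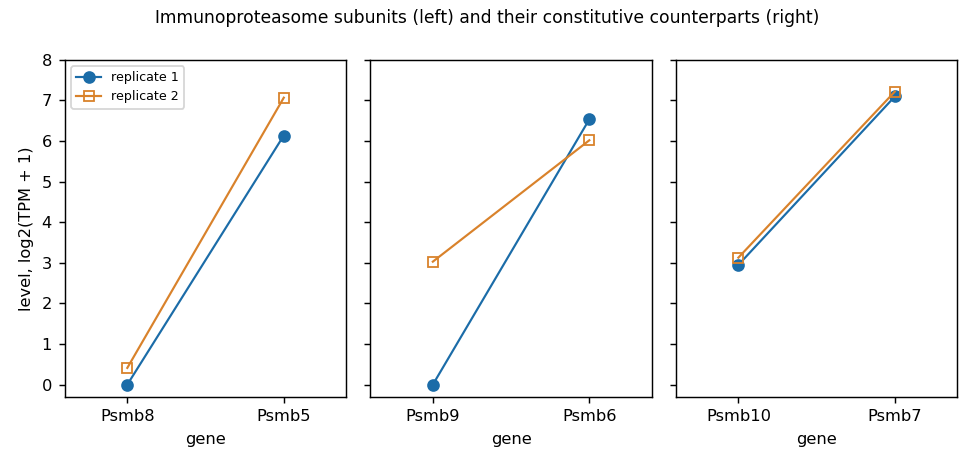
Level as log2(TPM + 1) on the vertical axis of each immunoproteasome subunit on the left of a panel and its constitutive counterpart on the right, with a line per library (circles for replicate 1, squares for replicate 2). Every left point lies under its right point, with differences of left minus right between -2.99 for Psmb9 and -6.66 for Psmb8, both in replicate 2.

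The summed level of leukocyte genes was higher in the library in which Psmb9 was above 0, through 2 genes. The 15 markers of microglia and other leukocytes summed to 5.95 TPM in replicate 1 and 32.7 TPM in replicate 2, and Aif1 (0 and 12.95 TPM) and Itgam (2.18 and 16.95 TPM) made up most of the second sum. Of the 15 genes, 8 were at 0 in both libraries, 4 were higher in replicate 2 and 3 were higher in replicate 1. The 8 at 0 were Ptprc, C1qa, C1qb, C1qc, Fcer1g, Tyrobp, Cd74 and H2-Aa. The 4 higher in replicate 2 were Aif1, Itgam, Tmem119 at 0.2 and 0.72 TPM and Csf1r at 0.14 and 0.35 TPM. The 3 higher in replicate 1 were Cx3cr1 at 2.01 and 1.34 TPM, P2ry12 at 1.06 and 0.43 TPM and H2-Ab1 at 0.36 and 0 TPM. The part of such cells in the Psmb9 value was not tested. Psmb9 (chr17:34181987-34187764, minus strand) also shares 212 bases with Tap1 (chr17:34187553-34197225, plus strand) in the GENCODE annotation of GRCm38. The strand setting of the counting is not stated, and Tap1 itself was at 0.17 and 0.15 TPM.

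Genes of interferon signalling and class I presentation were mixed in level. Of the 15 on that list, 9 were called above 1 TPM and 4 above 10 TPM, counts near the 55.5% and 32.4% of all genes. Over the mean of the libraries their median was 3.36 on the log2 scale, against 3.22 for all genes. By library it was 4.38 in replicate 1, above the 3.44 of all genes, and 2.44 in replicate 2, under their 3.18. The peptide transporter genes Tap1 and Tap2 were low, with Tap2 at 0.81 and 0 TPM. The class I heavy chains H2-K1 and H2-D1 were higher, at 36.5 and 20.4 TPM and at 21.7 and 45.4 TPM. B2m, the light chain, was at 22.2 and 1.07 TPM, and the libraries disagreed on it. The receptor subunit Ifngr2 was at 49.97 and 30.7 TPM and the kinase Jak1 at 32.98 and 31.7 TPM, while Irf8, a transcription factor of myeloid cells, was listed at 0 in both. Of the 15 genes 11 were higher in replicate 1 and 3 in replicate 2, where 41.4% of all genes above 0 were higher in replicate 2. All 3 immunoproteasome genes were higher in replicate 2, but by little for Psmb8 (0 and 0.33 TPM) and Psmb10 (6.72 and 7.74 TPM). No shared shift was tested.

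Other subunits restricted to a tissue were low. Psmb11, the thymus subunit that takes the place of Psmb5 in cortical epithelial cells, was at 2.96 and 1.19 TPM and lay under Psmb5 23.4-fold in replicate 1 and 112-fold in replicate 2. Psme2b, a copy of Psme2, was listed at 0 in both libraries. Psmc3ip was at 17.03 and 3.98 TPM, 4.28-fold higher in replicate 1.

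The 6 ATPases of the 19S base had a median of 88.5 and 92.8 TPM. Psmc2 stood above the others at 212 and 177 TPM (195 ± 24.9 TPM, SD, n = 2). The other 5 lay in a narrow range, with Psmc1 at 93.2 and 87.9 TPM, Psmc3 at 65.3 and 76.7 TPM, Psmc4 at 85.1 and 117 TPM, Psmc5 at 91.9 and 97.7 TPM and Psmc6 at 84.1 and 70.2 TPM. All 6 were called above 10 TPM, where 32.4% of all genes were. None differed by over 2-fold between the libraries, and 3 were higher in each. The SD over the ATPases of the mean log2 level was 0.51. It was 0.80 over the alpha subunits, 0.71 over the constitutive beta subunits and 0.40 over the 3 other subunits of the base.

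The scaffold subunits of the base, Psmd1 and Psmd2, were at 65.04 and 61.6 TPM and at 44.9 and 38.8 TPM, and the ubiquitin receptor Psmd4 was at 75.9 and 66.5 TPM. In the lid the spread was wider, with an SD over subunits of 0.96. Psmd6 led at 150 and 132 TPM, followed by Psmd14, the enzyme that removes ubiquitin chains, at 124 and 100 TPM and Psmd8 at 103 and 105 TPM. Psmd7, the inactive partner of Psmd14, was at 77.2 and 80.9 TPM, Psmd11 at 50.7 and 66.2 TPM and Psmd12 at 72.6 and 70.4 TPM. The lowest of the core were Psmd3 at 19.7 and 34.01 TPM and Psmd13 at 18.7 and 24.2 TPM. Psmd13 thus had 0.151 of the level of Psmd14 in replicate 1 and 0.241 in replicate 2. The 17 subunits of base and lid that the symbol rule takes summed to 1434 and 1406 TPM, and none differed by over 2-fold between the libraries.

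The chaperones that assemble the base were lower and less alike in the libraries. Psmd5 was at 51.03 and 68.8 TPM, Psmd10 (gankyrin) at 19.4 and 48.3 TPM and Psmd9 at 27.5 and 6.16 TPM. Psmd9 was 4.46-fold higher in replicate 1 and Psmd10 2.49-fold higher in replicate 2, so their order reversed between the libraries. The chaperones of the 20S core were at 20.95 and 33.3 TPM for Psmg1, 28.6 and 39.9 TPM for Psmg2, 9.85 and 11.99 TPM for Psmg3 and 21.3 and 6.96 TPM for Psmg4, with Psmg4 3.06-fold higher in replicate 1. Pomp, which matures the core with them, was at 201 and 200 TPM, above all 4 in both libraries.

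The 4 activators of the core and its inhibitor had a median of 69.3 and 88.4 TPM, against 85.1 and 97.6 TPM for the 31 core subunits. Psme1 and Psme2, which together form the interferon-inducible 11S ring, were at 110 and 165 TPM and at 69.3 and 39.4 TPM. Their ratio was 1.59 in replicate 1 and 4.20 in replicate 2, since Psme1 was higher and Psme2 lower in replicate 2. Psme3, which forms the nuclear ring of the same family, was at 101 and 88.4 TPM. Psme4, an activator that acts without ATP, was at 55.5 and 111 TPM, a 2.00-fold difference. Psmf1, named as an inhibitor, was at 40.1 and 23.8 TPM. All 5 were called above 10 TPM, where 32.4% of all genes were, and Psme1 and Psme2 exceeded each of Psmb8, Psmb9 and Psmb10 in both libraries.

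Genes that work with the proteasome were widely expressed, with a median of 58.7 and 52.4 TPM. Of 11 proteasome-associated genes, all 11 were called above 1 TPM, 9 above 10 TPM and Pomp alone above 100 TPM. Of all genes, 55.5%, 32.4% and 4.08% were called above these lines. The lid subunit Sem1 (listed as Shfm1) was at 40.5 and 52.4 TPM and the ubiquitin receptor Adrm1 at 33.1 and 75.6 TPM. The deubiquitinase Usp14 was at 149 and 99.1 TPM, the proteasome-bound thioredoxin Txnl1 at 115 and 62.2 TPM and Akirin2, which carries proteasomes into the nucleus, at 86.9 and 96.4 TPM. The lowest were Uchl5, another deubiquitinase, at 22.6 and 17.9 TPM and the ligase Ube3c at 12.9 and 21.7 TPM.

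The transcription factors that raise proteasome genes differed in level. Nfe2l1, which induces proteasome genes when the proteasome is inhibited, was at 103 and 88.1 TPM, and its relatives Nfe2l2 and Nfe2l3 were at 15.7 and 5.96 TPM and at 20.6 and 6.73 TPM. Nfe2l1 exceeded both in each library. Ddi2 and Ngly1, the protease and glycanase that process Nfe2l1, were at 19.8 and 22.6 TPM and at 34.5 and 25.1 TPM. Of the small Maf partners, Mafg was at 13.4 and 21.7 TPM, Mafk at 3.74 and 0 TPM and Maff at 0.47 and 0.12 TPM. Of the 8 regulators 6 were called above 1 TPM and 2 above 10 TPM, where 55.5% and 32.4% of all genes were.

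The ubiquitin genes Ubb and Rps27a were at 578 and 898 TPM and at 352 and 326 TPM. The activating enzyme Uba1 was at 172 and 176 TPM, above its relative Uba6 at 14 and 8.13 TPM. Of 8 genes that carry or extract ubiquitinated proteins, 7 were called above 10 TPM and none above 100 TPM, where 32.4% and 4.08% of all genes were. The segregase Vcp led them at 122 and 130 TPM, its cofactors Ufd1 (listed as Ufd1l) and Nploc4 were at 70.3 and 52.5 TPM and at 12.4 and 18.8 TPM, and the shuttle factors Rad23b, Ubqln1 and Ubqln2 were at 67.3 and 35.04 TPM, at 46.2 and 52.3 TPM and at 17.9 and 42.9 TPM.

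**Figure D4:**
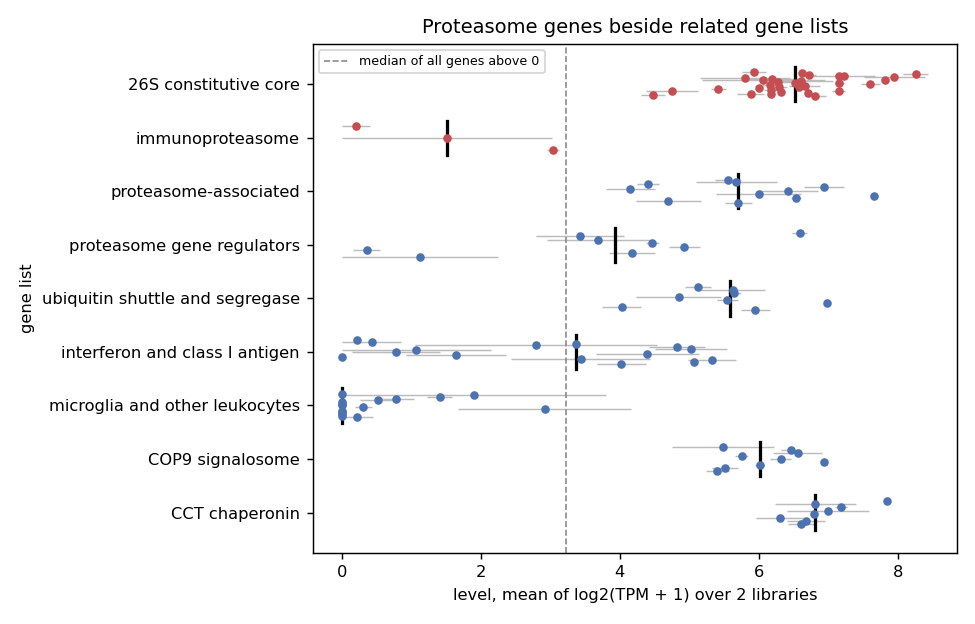
Mean of log2(TPM + 1) over the 2 libraries on the horizontal axis for the genes of each list, with a point per gene, a grey bar from one library to the other and a black tick at the list's median. The constitutive core has its median at 6.52 and the immunoproteasome at 1.51, on either side of the dashed median of all genes at 3.22. By library the immunoproteasome median was 0 in replicate 1, where 2 of its 3 genes are listed at 0, and 3.03 in replicate 2, against 3.18 for all genes there.

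The proteasome core was next set beside 2 other complexes made of many subunits in fixed number. The 31 constitutive subunits had a median log2 level of 6.52, against 6.80 for the 8 subunits of the CCT chaperonin and 6.01 for the 9 of the COP9 signalosome, which is built like the lid. The SD over subunits was 0.83 in the proteasome, 0.46 in CCT and 0.55 in COP9. All subunits of CCT and COP9 were called above 10 TPM, as were 30 of the 31 of the proteasome, where 32.4% of all genes were. By library the order changed: the core was at 6.43 and CCT at 7.11 in replicate 1, and the core at 6.62 and CCT at 6.41 in replicate 2. The SD over subunits was 0.996 and 0.75 in the proteasome, 0.42 and 0.60 in CCT and 0.78 and 0.42 in COP9, so the order of CCT and COP9 changed as well. These are descriptions of the lists, and no difference between them was tested.

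Large differences between the libraries were somewhat less common among proteasome genes than among all genes of like level, a difference that was not tested. Of 44 with a mean of at least 10 TPM, 7 differed by over 2-fold (15.9%), where 26.2% of all such genes did. The 7 were Psma6, Psmb1, Psmb3, Psmc3ip, Psmd9, Psmd10 and Psmg4. At 10 to 100 TPM the counts were 6 of 30, against 29.6% of all genes, and at 100 to 1000 TPM 1 of 14, against 9.28%. Of the 48 genes above 0, 24 were higher in replicate 2 and 24 in replicate 1, with a median log2 difference of 0.01, whereas 41.4% of all genes were higher in replicate 2. Over the 31 core subunits the level in replicate 1 and replicate 2 correlated with r = 0.82 and rho = 0.77, against r = 0.86 and rho = 0.84 over all genes above 0. These correlations are across genes, which share their library and are not independent. CCT subunits were lower in replicate 2 in 7 of 8 cases, as 6 of 7 alpha subunits were.

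**Figure D5:**
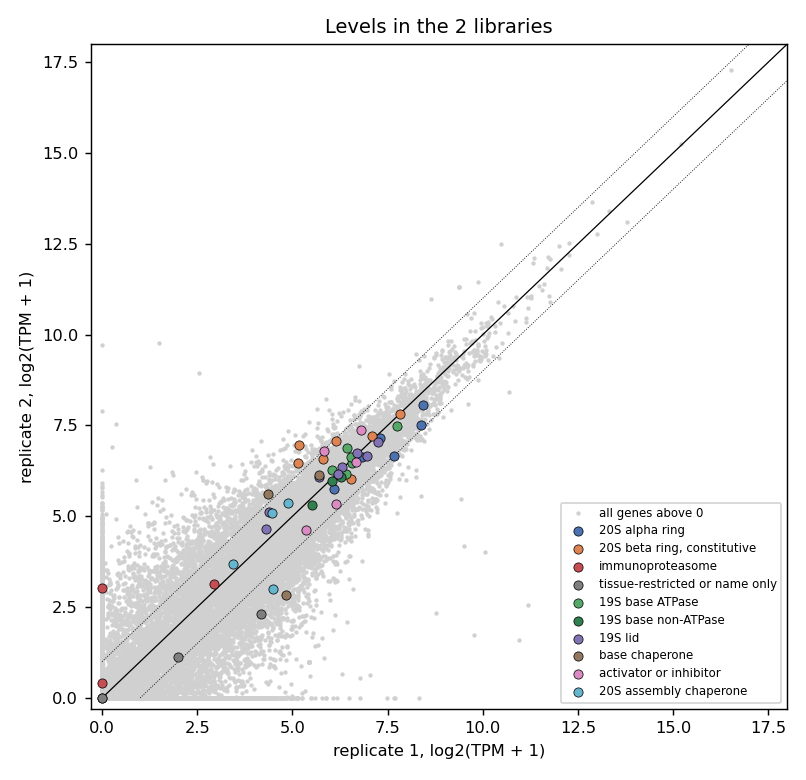
Level as log2(TPM + 1) in replicate 1 on the horizontal axis and replicate 2 on the vertical axis, with proteasome genes as coloured points by role and all 19968 genes above 0 in grey. The solid line marks equal levels and the dotted lines a difference of 1 log2 unit; 24 proteasome genes lie above the solid line and 24 below it.

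Some proteasome genes share bases with other genes, which bears on values from counting whose strand setting is not given. In the GENCODE annotation 24 of the 50 overlap another gene, 19 of them on the opposite strand and 10 on the same strand. The share over all genes was not worked out, so these counts are not read as particular to proteasome genes. Among those that differed between libraries, Psmd9 overlaps Hpd and Psmc3ip overlaps Mlx, both on the opposite strand. The 50 genes lie on 16 chromosomes, with 10 on chromosome 11. The immunoproteasome genes Psmb9 and Psmb8 stand beside Tap1 and Tap2 on chromosome 17, within the class II region, while Psmb10 is on chromosome 8 (chr8:105935735-105938444, minus strand).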

How the data were processed

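RNA was measured in 2 libraries of 1 group. TPM values were used as the authors deposited them, with 1 column for each library. Per the submitters' processing notes the build was mm10 and the tools were RSEM 1.2.28 and TopHat2 2.0.10, in roles that the notes leave unsaid. Annotation, filters and strand setting are not stated, and reads of near-identical copies may have been split. TPM keeps no depth, so the depth of the libraries is unknown and intervals from counts could not be made. The columns summed to 999999.75 and 999999.66. The column of replicate 1 has letters of its gene name exchanged and was matched by replicate number.

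Levels were put on log2(TPM + 1), which understates the change of low genes, and tested with limma 3.58.1 (R 4.3.3), intercept only with a variance trend, over the 19968 genes above 0 in either library, against lines of 1, 10 and 100 TPM, one-sided, with Benjamini-Hochberg adjustment and a threshold of 0.05. In this fit of levels the prior degrees of freedom came out infinite. Its variances were therefore those of the trend, and a gene's own disagreement between libraries did not enter. The pair test used the same model on every gene minus the constitutive subunit, two-sided. It treats the subtracted gene's error as shared by all genes and may call too many genes near its level. Its prior degrees of freedom were not recorded, so a pair's own disagreement may have entered its SE. The scripts were tested on simulated data. Alternatives changed the pseudocount, filter, trend, scaling, library and, added after seeing the data, the error of a pair.

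Every gene that the symbol rule finds is named, and of each other list up to 4 genes of highest and 2 of lowest mean TPM with Nfe2l1, Nfe2l2, Pomp, Sem1, Adrm1, Tap1, Tap2, B2m and Ptprc; other genes named, such as Rps27, were chosen after their values were seen. The members and lists were chosen with earlier results of these data known. Paaf1, on the associated list, was not analysed here. Some genes that this rule takes are not reported. Promoters are those of RefSeq and gene positions those of GENCODE, both on GRCm38. Python 3.11.15 with numpy 2.4.6, pandas 2.3.3 and matplotlib 3.10.9 was used.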

Additional observations from a re-analysis of the deposited data

How the results depend on the processing

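Under every alternative the differences of the 3 immunoproteasome pairs stayed below 0, and past the threshold wherever a test could be made. For Psmb8 minus Psmb5 the limma adjusted p lay between 4.57e-15 and 1.47e-08 (no value with a mean of at least 1 TPM, which leaves Psmb8 out). The limma adjusted p lay between 0.00398 and 0.0130 for Psmb9 minus Psmb6, and between 4.52e-08 and 9.63e-04 for Psmb10 minus Psmb7. A normal test that took the errors of both genes as independent, without the pairing by library, gave adjusted p = 3.32e-48, 1.55e-07 and 7.49e-06 in the same order. Its errors came from the fit of levels, so disagreement between the libraries on these genes did not enter. For Psmb9 minus Psmb6 its SE was 0.87, against 1.77 from the 2 libraries alone. By library Psmb9 minus Psmb6 ranged from -6.53 to -2.99. Of the 48 genes tested, 45 were above 1 TPM in every fit and 38 to 40 above 10 TPM. Above 100 TPM the count of 4 became 0 without the variance trend and 9 after rescaling without the mitochondrial genome, and under 10 TPM the count of 3 became 1 with a pseudocount of 0.1, 0 with a mean of at least 1 TPM and 1 after rescaling. By value in single libraries these counts were 13 to 14 and 5 to 7. The shares of all genes called under the alternatives are not given here, so these shifts are not read as particular to proteasome genes. Rescaling moved the median of all genes by 0.30 on the log2 scale and that of proteasome genes by 0.34; the cause of these changes was not tested. Median levels minus the median of all genes, by single library, ranged from -3.44 to -0.16 for the immunoproteasome, 2.63 to 2.97 for all proteasome genes, 2.69 to 3.77 for the constitutive beta ring, 1.39 to 2.44 for the base chaperones, 2.69 to 3.30 for the activators and inhibitor, 3.46 to 3.85 for the alpha ring, 3.04 to 3.37 for the ATPases, 2.60 to 2.78 for the other base subunits (2.93 with a pseudocount of 0.1), 2.80 to 3.07 for the lid and 1.02 to 1.22 for the 20S chaperones. No difference of a pair and no median against all genes changed sign, but the order of roles and of the core and CCT changed between libraries. No paired analysis was possible because the libraries form 1 group. With 2 libraries of unknown depth, values near 0 TPM are the least certain.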
